A study of Mus musculus with 16 samples.

Results

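Hox genes were examined as a code of body position in cells of the mouse thoracic aorta. The members were every row of the count files whose symbol is Hox followed by a cluster letter from a to d and a number, which gave 40 rows and 39 symbols among 31055 features, because Hoxd4 is listed under 2 gene identifiers. Their unique molecular identifiers (UMIs, each standing for 1 captured transcript) were counted in 3 cell classes. Vascular smooth muscle cells (VSMCs) were cells with at least 5 UMIs of Myh11 and more of Myh11 than of Dcn. Fibroblasts had at least 5 UMIs of Dcn and more of Dcn than of Myh11, and endothelial cells had at least 2 UMIs of Pecam1 and Cdh5 together.

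Hox genes encode homeodomain transcription factors that give cells along the body axis a positional identity. They lie in 4 clusters, and genes near the 3′ end of a cluster, with low numbers, are switched on earlier and further towards the head than genes near the 5′ end. Retinoic acid acts on the clusters from the 3′ end, Polycomb and Trithorax proteins maintain their state, and Pbx, Meis and Pknox proteins bind DNA together with Hox proteins. The smooth muscle of the aortic root and ascending aorta comes from cardiac neural crest and from heart field mesoderm, while the wall further along comes from other mesoderm.

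The study asked how aortic cells respond when smooth muscle loses Smad3, which carries TGF-beta signals to the nucleus. It used 129S6/SvEv mice that were Smad3+/+ or Smad3lox/lox, all with Myh11-CreER, a smooth muscle recombinase carried on the Y chromosome, so that the mice were male. All received tamoxifen at 6 weeks of age, which removes Smad3 from smooth muscle in the lox mice (Smad3SmKO), and some carried an EGFP-L10a tracer. Cells were taken from the sinus of Valsalva to the branch of the left subclavian artery and sorted as nucleated and living, with 1 library per mouse. Batch 4, with a 60 min digestion, holds every library of 10 weeks after deletion, 2 Smad3+/+ and 2 Smad3SmKO. The 5 Smad3+/+ and 7 Smad3SmKO libraries of 18 weeks come from batches 1 to 3 (30 min digestion) and from batches 5 and 6 (60 min), and no Smad3+/+ library is in batch 5. Whether libraries of a group shared litters is not given, so p-values measure the spread between these mice.

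The 16 libraries held 12539539 to 52843031 UMIs. Of 66349 deposited barcodes 50858 met the study's limits, and 315 of the 50541 distinct barcodes kept were present in more than 1 library, at most 11 for any pair. Smad3 itself was at 1.97 to 9.54 UMIs per 1000000 UMIs of the class (CPM) in VSMCs of Smad3+/+ libraries and at 4.32 to 19.1 CPM in those labelled Smad3SmKO. The files count the whole gene, and these counts do not test the deletion, so genotypes below are those of the labels. In 4 libraries GFP UMIs differed from the tracer label: both Smad3SmKO libraries of 10 weeks held 220 and 125 GFP UMIs in VSMCs without a tracer label, and Smad3+/+ replicates 4 and 5 of 18 weeks held 0 with one.

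Cells that met more than 1 rule were left out, which gave 8714 VSMCs, 34253 fibroblasts and 1254 endothelial cells. Of the 3303 cells that met the endothelial rule, 2049 also met another and were left out by this step. Cells with at least 2 UMIs of the leukocyte gene Ptprc that met none of the rules, 1359 in all, served as a class of other origin. The classes matched their names: summed over the VSMC marker list, the median library had 55555 CPM in VSMCs, 2122 CPM in fibroblasts and 722 CPM in endothelial cells. The endothelial list, Pecam1 and Cdh5 included, was at 3525 to 5574 CPM in endothelial cells and at 4.36 to 23.9 CPM in VSMCs. Endothelial sums also carried 85.7 to 11222 CPM of pericyte markers and 13.4 to 1882 CPM of leukocyte markers, whose part in the results was not tested.

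Promoters of some of the members that set the classes apart, or that carry a match to a Hox and Pbx motif, are given 5′ to 3′. They are from RefSeq (GRCm38.p6), from 250 bases before the start of the gene to 50 after it. Capitals mark TGATNNAT, a composite motif of Pbx and Hox proteins searched on both strands. Hoxa2 is at chr6:52164782-52165081 (minus strand), Hoxa3 at chr6:52213018-52213317 (minus), Hoxb4 at chr11:96318017-96318316 (plus), Hoxd8 at chr2:74704365-74704664 (plus) and Hoxd9 at chr2:74697513-74697812 (plus). The start given for Hoxa3 lies between those given for Hoxa6 and Hoxa7, so its sequence stands for that start alone.
Hoxa2: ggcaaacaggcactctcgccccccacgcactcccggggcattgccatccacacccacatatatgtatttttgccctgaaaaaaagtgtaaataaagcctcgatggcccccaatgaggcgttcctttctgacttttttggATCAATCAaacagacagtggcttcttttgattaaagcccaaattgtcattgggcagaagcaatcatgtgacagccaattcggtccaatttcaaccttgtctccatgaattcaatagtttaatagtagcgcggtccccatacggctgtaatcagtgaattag
Hoxa3: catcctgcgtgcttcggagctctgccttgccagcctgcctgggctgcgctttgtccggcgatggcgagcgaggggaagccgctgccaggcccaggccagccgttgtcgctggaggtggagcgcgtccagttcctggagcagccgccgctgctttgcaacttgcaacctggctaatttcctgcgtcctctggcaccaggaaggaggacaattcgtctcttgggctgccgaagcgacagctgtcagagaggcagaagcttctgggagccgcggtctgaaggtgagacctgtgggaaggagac
Hoxb4: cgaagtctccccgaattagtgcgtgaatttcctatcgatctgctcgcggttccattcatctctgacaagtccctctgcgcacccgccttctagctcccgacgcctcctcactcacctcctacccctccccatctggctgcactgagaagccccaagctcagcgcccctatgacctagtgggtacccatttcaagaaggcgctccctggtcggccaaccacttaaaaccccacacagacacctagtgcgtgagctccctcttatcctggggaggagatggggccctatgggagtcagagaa
Hoxd8: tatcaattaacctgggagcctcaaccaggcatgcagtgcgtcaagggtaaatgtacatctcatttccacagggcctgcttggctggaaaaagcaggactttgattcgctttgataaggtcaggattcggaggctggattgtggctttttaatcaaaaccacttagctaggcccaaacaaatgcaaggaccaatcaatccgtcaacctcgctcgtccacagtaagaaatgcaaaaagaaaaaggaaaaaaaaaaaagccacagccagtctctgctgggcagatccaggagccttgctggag
Hoxd9: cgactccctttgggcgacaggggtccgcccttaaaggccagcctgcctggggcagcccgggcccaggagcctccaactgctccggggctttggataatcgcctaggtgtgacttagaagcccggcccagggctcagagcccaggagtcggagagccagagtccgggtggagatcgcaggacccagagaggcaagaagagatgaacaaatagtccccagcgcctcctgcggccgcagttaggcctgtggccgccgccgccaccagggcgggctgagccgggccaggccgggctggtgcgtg

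Of 24 Hox promoters found for 22 symbols, 4 held the composite motif, those of Hoxa2, Hoxb1, Hoxb8 and a start of Hoxd11, while 8.85% of 32851 mouse promoters of the same length held it. The letters CCAAT, on either strand, were in 15 of the 24, Hoxa2, Hoxa5 and Hoxd8 among them, and in 37.4% of all. The letters TATAAA were in 4 of the 24, of Hoxa10, Hoxb8, Hoxd13 and Hoxd4, and in 13.6% of all. The promoters of Hoxa3 (at the start given) and Hoxd9 each held 20 CpG dinucleotides, that of Hoxb4 14, that of Hoxa2 9 and that of Hoxd8 6, with a median of 7 over all promoters and of 14.5 over the Hox promoters. No promoter was found for Hoxb2, Hoxb3, Hoxa4 or Hoxb5.

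All 3 classes expressed the 3′ genes of the HoxA and HoxB clusters. Endothelial cells added HoxD genes of groups 8 to 10, mostly in the part of them with lymphatic markers. Part of the fibroblasts added Hoxd8 and Hoxd9. Hox genes made up 96.2 CPM in VSMCs (8175 UMIs), 57.4 CPM in fibroblasts (19088 UMIs) and 180 CPM in endothelial cells (1600 UMIs), against 8.47 CPM in leukocytes (101 UMIs). At least 1 Hox UMI was present in 50.1% of VSMCs, 31.1% of fibroblasts, 56.2% of endothelial cells and 6.25% of leukocytes, whose median depths were 7882.5, 8236, 5440 and 7162 UMIs. Thinned to 2000 UMIs per cell, these shares were 17.5%, 11.3%, 29.0% and 1.72%. The leukocyte signal was mostly 1 gene, Hoxb4, known from blood stem cells, with 70 of the 101 UMIs, while Hoxb2 had 1 UMI there.

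Groups 1 to 5 held 99.5% of the Hox UMIs of VSMCs, 97.3 to 100.0% across the 16 libraries. They held 93.0% in fibroblasts (83.5 to 98.4%) and 71.9% in endothelial cells (46.5 to 93.8%). HoxB gave 56.2% and HoxA 43.7% of the UMIs of VSMCs, and HoxB 63.0% and HoxA 30.8% of those of fibroblasts. HoxC gave few UMIs, with 3 UMIs in VSMCs, 85 in fibroblasts and 3 in endothelial cells. HoxD made up 0.0979% of Hox UMIs in VSMCs, 5.79% in fibroblasts and 23.8% in endothelial cells.

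Of the 40 rows, 19 had a UMI in VSMCs, 34 in fibroblasts and 23 in endothelial cells, and 5 rows had none in the 3 classes (Hoxd13, Hoxd12, Hoxa10, Hoxb13 and Hoxc12). A row at 0 could still lie at up to 0.0353 CPM in VSMCs, 0.009 CPM in fibroblasts and 0.338 CPM in endothelial cells, the level that 3 UMIs would give, counting error alone. Among the 10 members with most UMIs were Hoxb2 (8416), Hoxb4 (5578), Hoxa3 (5046), Hoxb3 (2740), Hoxa2 (1455), Hoxa5 (1428), Hoxa4 (1359), Hoxd8 (1136) and Hoxb5 (448). UMIs of a 3′ assay are not divided by gene length, and capture can differ between genes, so this is an order of molecules seen. Hoxa2 and Hoxa3 share exons with Gm28308 on the same strand, Hoxc5 with Hoxc10, and 1 Hoxd4 row with Hoxd3, so those rows are uncertain. Every member from Hoxd9 (281 UMIs) downwards had fewer UMIs than these 10.

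Hoxb2, a group 2 gene known from hindbrain and neural crest patterning, was at 17.4, 34.2 and 62.2 CPM in VSMCs as the lowest, median and highest of the 16 libraries. It was at 9.66, 16.2 and 51.2 CPM in fibroblasts. In endothelial sums, which had at least 20 cells in 15 libraries, it was at 8.81, 18.8 and 38.2 CPM. VSMCs were the higher class in 15 of 16 libraries against fibroblasts and in 14 of 15 against endothelium, although the ranges overlapped. The log2 difference was -0.94 ± 0.11 (SE) for fibroblasts minus VSMCs (adjusted p = 5.83e-09) and -0.83 ± 0.16 for endothelium minus VSMCs (adjusted p = 3.96e-05), in edgeR's quasi-likelihood test with library as a block and Benjamini-Hochberg adjustment over all 12017 genes tested.

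Hoxa3, a group 3 gene needed for pharyngeal arch organs and arteries, was at 5.92, 21.3 and 45.5 CPM in VSMCs. It was at 4.73, 8.06 and 30.5 CPM in fibroblasts and at 4.64, 11.2 and 48.8 CPM in endothelial cells. It was higher in VSMCs than in fibroblasts in 15 of 16 libraries (log2 difference -1.14 ± 0.14, adjusted p = 3.59e-09) and than in endothelium in 12 of 15 (-0.99 ± 0.21, adjusted p = 0.000115). Hoxa4, its neighbour in the cluster, was at 0.986, 7.11 and 26.3 CPM in VSMCs and at 1.06, 1.80 and 4.88 CPM in fibroblasts. It too was lower in fibroblasts in 15 of 16 libraries (-1.77 ± 0.23, adjusted p = 1.34e-08).

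Hoxb4 ran the other way in the endothelium. It was at 3.74, 10.0 and 59.8 CPM in VSMCs, 7.40, 13.5 and 26.9 CPM in fibroblasts and 8.24, 33.5 and 92.1 CPM in endothelial cells. Endothelial cells were above VSMCs in 13 of 15 libraries (log2 difference 1.92 ± 0.28, adjusted p = 2.73e-07) and above fibroblasts in 13 of 15 (1.52 ± 0.26, adjusted p = 3.81e-06). Hoxa5, known from lung and skeletal patterning, was at 4.67, 10.6 and 24.7 CPM in endothelial cells against 1.45, 3.59 and 35.9 CPM in VSMCs and 1.44, 3.13 and 5.38 CPM in fibroblasts. Every endothelial sum was above the fibroblasts of its library, and the difference was 1.75 ± 0.31 against VSMCs (adjusted p = 8.06e-06) and 1.88 ± 0.29 against fibroblasts (adjusted p = 7.63e-07). Hoxb5, a group 5 gene known from endothelial and blood progenitors, was at 0, 8.24 and 42.7 CPM in endothelial cells, at 0, 0.875 and 14.4 CPM in VSMCs and at 0.063, 0.939 and 4.74 CPM in fibroblasts (3.40 ± 0.45, adjusted p = 3.09e-08 against VSMCs, and 3.50 ± 0.40, adjusted p = 1.8e-09 against fibroblasts).

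Hoxb3 and Hoxa2 gave no call between classes. Hoxb3 was at 0, 6.12 and 19.1 CPM in VSMCs, 3.79, 6.18 and 14.6 CPM in fibroblasts and 0, 7.42 and 28.4 CPM in endothelial cells, with log2 differences of -0.09 ± 0.16, 0.07 ± 0.26 and 0.17 ± 0.24 in the order fibroblasts minus VSMCs, endothelium minus VSMCs and endothelium minus fibroblasts. Hoxa2 was at 0, 2.98 and 7.18 CPM in VSMCs and 1.97, 3.30 and 9.48 CPM in fibroblasts.

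Hoxd8, a gene of the middle of the HoxD cluster, differed in all 3 class comparisons. Summed over all cells it had 3 UMIs in VSMCs, 916 in fibroblasts and 217 in endothelial cells. Per library it was at 0, 0 and 1.45 CPM in VSMCs, 0, 2.49 and 5.17 CPM in fibroblasts and 0, 24.6 and 53.6 CPM in endothelial cells. It was higher in fibroblasts than in VSMCs in 15 of 16 libraries (log2 difference 5.39 ± 0.63 in edgeR, adjusted p = 2.5e-09). The ratio of the pooled levels, a separate measure, was 78.0 (95% exact interval 26.6 to 379). Endothelium was above VSMCs in 14 of 15 libraries (8.40 ± 0.58 in edgeR, adjusted p = 5.52e-15), with a pooled ratio of 692 (234 to 3380). Against fibroblasts the difference was 3.00 ± 0.31 (adjusted p = 2.34e-10), with a pooled ratio of 8.87 (7.61 to 10.3). With 3 UMIs in VSMCs, Hoxd8 passed the filter on low counts through the other classes, so its p-values against VSMCs are not read as support. The intervals cover counting error alone.

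**Figure D1:**
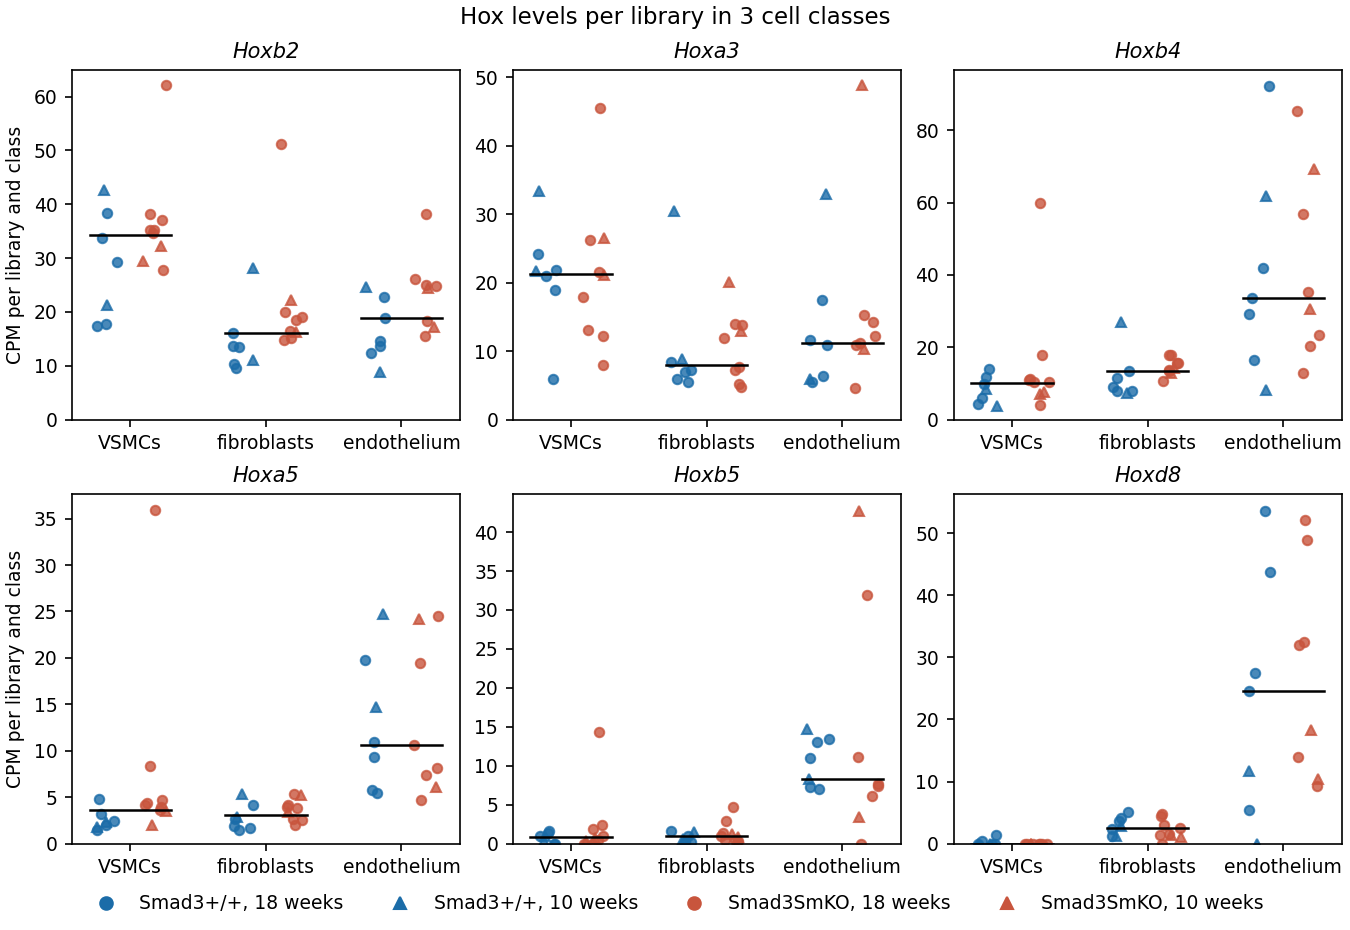
Level of 6 Hox genes in each library and class, in CPM, as 1 point per library with a bar at the median. Circles are libraries of 18 weeks and triangles of 10 weeks, blue Smad3+/+ and red Smad3SmKO. Hoxb2 and Hoxa3 were highest in VSMCs, and Hoxb4, Hoxa5, Hoxb5 and Hoxd8 in endothelium, and the high VSMC point at 59.8 CPM of Hoxb4 is Smad3SmKO replicate 1 of 18 weeks.

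In all, 4 of the 9 Hox genes that passed the filter were called between fibroblasts and VSMCs, 1 higher and 3 lower in fibroblasts, where 69.6% of all genes were called. Between endothelium and VSMCs 6 of 9 were called, 4 higher and 2 lower, against 67.0% of all genes. Between endothelium and fibroblasts 5 of 9 were called, all higher in endothelium, against 62.8% of all genes. These shares are near or below those of genes at large, so the counts do not set Hox genes apart, and the comparisons share the same sums. The median log2 difference of the 9 was -0.11, 0.07 and 1.52 in that order, and of all genes 0.05, -0.00 and -0.04. A gene can pass the filter through the class where it is high, so the common direction and these medians are not read as a result. Calls were the same without the 4 libraries with unmatched tracer labels, and without Smad3SmKO replicate 1 of 18 weeks Hoxb4 was called as well between fibroblasts and VSMCs, as Hoxd9 was without Smad3+/+ replicate 3 of 18 weeks. With cells that met more than 1 rule kept in, Hoxa4 was called as well between endothelium and VSMCs (7 calls) and Hoxa3 between endothelium and fibroblasts (6 calls).

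Endothelial HoxD genes were unevenly spread over the cells. Prox1, the master regulator of lymphatic endothelium, and Mmrn1, another lymphatic gene, were chosen as markers after values had been seen, so the comparison carries no test. A UMI of either was held by 249 endothelial cells, with a median depth of 5803 UMIs, and 1005 cells had neither, with 5378. Hoxd8 was at 76.8 CPM in the first and 11.03 CPM in the second, and higher in the first in 11 of 11 libraries with at least 10 cells of both. Hoxd9 was at 54.2 and 2.26 CPM and was higher in 10 of the 11. Hoxd10 was at 16.6 and 0.424 CPM. Hoxa3 and Hoxb2 ran the opposite way, at 5.53 CPM with the markers and 12.2 CPM without and at 10.5 and 22.2 CPM, each lower in 10 of 11 libraries. Hoxb4 took no common direction, with library medians of 29.3 CPM with the markers and 23.0 CPM without, and was higher with them in 5 and lower in 6 of the 11.

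Cells with Prox1 or Mmrn1 made up 4.08 to 46.8% of endothelial cells in the 30 min libraries of 18 weeks and 0 to 21.7% in the 60 min libraries. These cells held 139 of the 217 endothelial UMIs of Hoxd8, 98 of the 114 of Hoxd9 and 30 of the 33 of Hoxd10, a count without a test. Hoxd9 had 114 UMIs in endothelial cells against 166 in fibroblasts and 1 in VSMCs. Its ratio of endothelium to fibroblasts was 25.7 (95% exact interval 20.1 to 32.8). Hoxd10 had 33 UMIs in endothelium, 1 in fibroblasts and 0 in VSMCs, which is at least 105-fold higher than the level that 3 UMIs would give over all VSMCs. Hoxa7, a group 7 gene, had 33 UMIs in endothelium and 2 in VSMCs, a ratio of 158 (40.4 to 1360).

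Hox levels in fibroblasts were also described beside markers. Tbx20 and Gata4 are transcription factors of heart and valve tissue, and they too were picked as markers after values had been seen. Both led the genes that were lower in fibroblasts with a HoxA UMI, compared below. Low levels of the 3′ genes beside them are therefore no separate result, and the comparison carries no test. All Hox rows together were at 17.1 CPM in the 12189 fibroblasts with a UMI of either and at 89.0 CPM in the 22064 without, and at least 1 Hox UMI was held by 13.2% and 41.0% of the cells, although the first had more UMIs (a median of 11018 against 6826). Hoxb2 was at 2.45, 4.01 and 24.2 CPM with the markers and 15.9, 25.9 and 69.3 CPM without, as lowest, median and highest of 16 libraries. Hoxb4 was at 0.902, 2.29 and 8.60 CPM against 10.9, 19.7 and 33.9 CPM, and Hoxa3 at 0.726, 1.69 and 6.76 CPM against 6.80, 15.05 and 33.5 CPM. Each of the 3 was lower with the markers in 16 of 16 libraries. Hoxd8 ran the other way, at 4.14 CPM over the cells with the markers and 1.67 CPM over those without, higher in 15 libraries and at 0 in both sets of the sixteenth.

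In VSMCs, position was compared with markers that the study places along the vessel, Ptprz1 and Tes for the distal ascending aorta and Notch3 and Enpep for the root and proximal ascending aorta. VSMCs with a UMI of the first pair and none of the second numbered 5227, and the reverse 797, with median depths of 8040 and 8808 UMIs. All Hox rows together were at 106 CPM in the distal set and 42.2 CPM in the proximal set, and the distal set was higher in 14 of 14 libraries with at least 10 cells of both. In the 12 libraries with at least 20 cells of both, Hoxb2 was at 23.8, 41.2 and 50.1 CPM in the distal set and at 7.92, 13.5 and 43.0 CPM in the proximal set. It was higher in 12 of 12 libraries (log2 difference 1.34 ± 0.17, adjusted p = 1.54e-06 in edgeR's quasi-likelihood test).

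Hoxa3 was at 10.0, 25.04 and 34.9 CPM in the distal set and 0, 9.62 and 16.8 CPM in the proximal set, higher in 11 of 12 (1.39 ± 0.21, adjusted p = 1.46e-05). Of all 6689 genes tested, 11.7% were called as higher. Hoxb2 and Hoxa3 are the 2 members that passed the filter on low counts, which a gene can pass through the set where it is high, so their number is not read against that share. Hoxb4 did not pass it and was at 10.6 CPM in the distal and 6.16 CPM in the proximal cells pooled. With cells matched on UMI total Hoxb2 alone passed the filter, and its difference was 1.34 (adjusted p = 2.78e-06). The distal set made up 14.3 to 68.9% of marked VSMCs in the 30 min libraries and 81.1 to 96.0% in the 60 min libraries, so a library's VSMC mean mixes both.

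**Figure D2:**
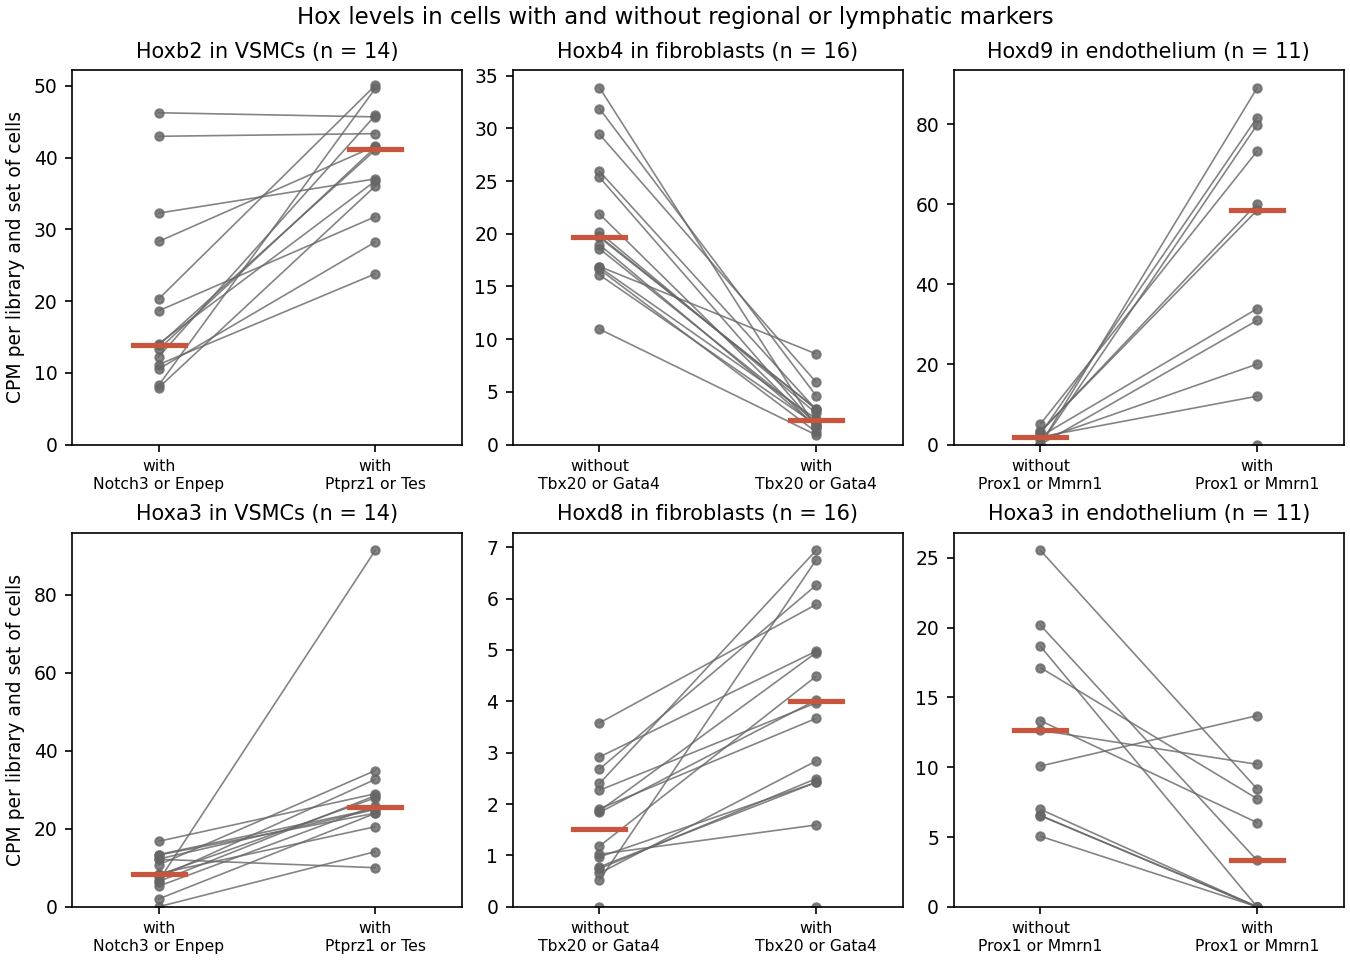
Levels of 6 gene and class pairs in cells with and without regional or lymphatic markers, in CPM, with each library as a line between its 2 sets and red bars at the medians. Libraries with at least 10 cells in both sets are drawn, 14 for VSMCs, 16 for fibroblasts and 11 for endothelium. In fibroblasts Hoxb4 had a median of 19.7 CPM without the markers and 2.29 CPM with them, lower along all 16 lines, while Hoxd8 was higher with them along 15. The fibroblast and endothelial markers were chosen after values had been seen. Those of fibroblasts led the genes lower in cells with a HoxA UMI, so the low Hoxb4 is no separate result.

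Other position genes were compared between the same VSMC sets, between which 23.6% of all genes were called in either direction. Of the non-coding RNAs of the clusters, Hotairm1 (1.46 ± 0.14, adjusted p = 3.75e-08) and Hoxb3os (1.42 ± 0.15, adjusted p = 1.67e-07) were higher in the distal set in 12 of 12 libraries, 2 of 2 tested. Irx3 (2.58 ± 0.31) and Prrx2 (1.70 ± 0.27) of the other homeobox genes were higher and Prrx1 (-1.17 ± 0.08) lower. Of the cardiac and neural crest list 6 of 9 were called, 2 of them higher, and Gata4 (-2.24 ± 0.21), Msx1 (-2.21 ± 0.12) and Tbx20 (-1.32 ± 0.13) were lower in 12 of 12. Among the Hox cofactors 3 of 5 were called, Meis2 (0.44 ± 0.11) among those higher and Pbx3 (-0.92 ± 0.14) lower. Whether counting used the strand is not given in the sources used here, so UMIs of Hotairm1 and Hoxb3os and of the genes they overlap cannot be told apart with certainty.

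Hox transcripts were found together within cells more often than depth alone gives, most in fibroblasts. Of VSMCs, 49.9% held no Hox gene, 30.8% held 1 and 13.9% held 2. The same shares were 68.9%, 20.3% and 7.58% of fibroblasts and 43.8%, 31.2% and 15.8% of endothelial cells. Cells holding both genes of a pair were counted against the number expected from each gene's share within 10 strata of UMI depth of each library, for pairs with at least 20 expected cells. The median ratio was 1.26 over 26 pairs in VSMCs (0.898 to 1.74), 2.02 over 33 pairs in fibroblasts (0.128 to 3.61) and 1.10 over 6 pairs in endothelium (0.831 to 1.21). Pairs from 1 cluster had a median of 1.32 in VSMCs (11 pairs) and 2.46 in fibroblasts (12 pairs), and pairs from different clusters 1.21 (15) and 1.82 (21). These are descriptions over cells that share libraries and depth, without a test.

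Neighbours in HoxA gave the highest ratio in fibroblasts. Hoxa4 and Hoxa5 were held together by 79 fibroblasts where 21.9 were expected (3.61, above 1 in 8 of 8 libraries with at least 1 expected cell) and by 40 VSMCs where 23.1 were (1.73). Hoxb4 and Hoxb2 were held together by 1024 fibroblasts where 495 were expected (2.07, above 1 in 16 of 16 libraries) and by 307 VSMCs where 225 were (1.36, in 12 of 13). Hoxd8 was found apart from the 3′ genes in fibroblasts: with Hoxb2 in 27 cells where 97.1 were expected (0.278), with Hoxb4 in 19 where 75.0 were (0.253) and with Hoxa3 in 11 where 54.8 were (0.201), above 1 in 0 of 14, 13 and 13 libraries. In endothelium Hoxd8 and Hoxb4 were together in 34 cells where 33.0 were expected (1.03), a description with no test.

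**Figure D3:**
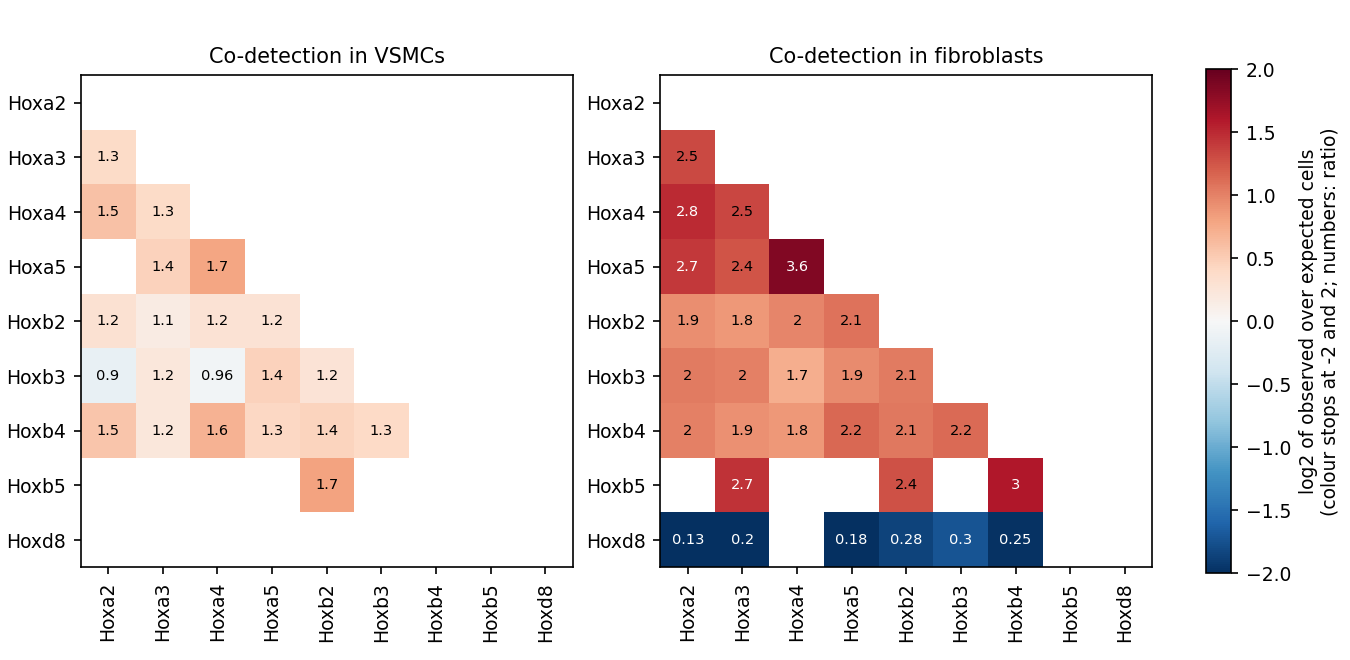
Ratio of observed to expected cells holding both genes of a pair, in VSMCs and fibroblasts, with the number in each square the ratio and the colour its log2. Pairs with under 20 expected cells are blank. In fibroblasts the pairs of HoxA and HoxB genes lay above 1 and the 6 pairs with Hoxd8 between 0.128 and 0.301, while ratios in VSMCs lay between 0.898 and 1.74.

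Joint presence was also tested over libraries. Fibroblasts with a HoxA UMI were set against an equal number without, matched on UMI total within each library, and HoxB genes, which did not enter the choice, were compared. Hoxb4 (log2 difference 1.46 ± 0.13, adjusted p = 9.48e-08, higher in 16 of 16 libraries), Hoxb3 (1.39, adjusted p = 2.01e-06, 15 of 16) and Hoxb2 (1.21, adjusted p = 4.51e-06, 14 of 16) were all higher. Of all 10399 genes, 11.4% were called as higher and 21.0% in either direction, and the members tested are those that passed the filter on low counts. The genes called with the lowest p outside the clusters were Osr1, Tnfsf13b, Tshz2, Scara5 and Fst among those higher. Tbx20 (-3.42 ± 0.17), Gata4 (-2.35 ± 0.13), Mindy2, Plxdc1 and the growth factor Ptn (-3.43 ± 0.26) led those lower. All 9 other homeobox genes that passed the filter were called, Prrx1 (0.64 ± 0.06), Prrx2 (0.80 ± 0.08) and Meox2 (0.91 ± 0.10) among the 7 higher, and Shox2 (-2.67 ± 0.29) and Meox1 (-1.36 ± 0.13) lower.

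In VSMCs, where 11 libraries had at least 20 cells in both sets, the same sets were compared. Hoxb2 was higher with a HoxA UMI in 11 of 11 libraries (0.36, adjusted p = 0.00791) and Hoxb4 in 9 of 11 (0.50, adjusted p = 0.0448), while Hoxb3 had 0.04 (adjusted p = 0.974), where 0.834% of 9235 genes were called as higher and 2.83% in either direction. Whether these differences differ from those in fibroblasts was not tested. The call of Hoxb4 was lost in 11 alternatives, among them the leaving out of 6 single libraries (Smad3+/+ replicate 2 and Smad3SmKO replicates 2, 5, 6 and 7 of 18 weeks, and Smad3+/+ replicate 2 of 10 weeks), with adjusted p from 0.0596 to 0.186 for those. Without the 4 libraries of unmatched tracer labels Hoxb2 alone passed the filter and was not called (0.41, adjusted p = 0.065). Rgs5, Gxylt2, Sost, Pcdh7 and Tes led the genes that were higher, and Pgam2 (-3.04 ± 0.18), Gja4 (-2.50 ± 0.19), Col8a1, Palld and Tmem215 those lower, with Msx1 (-0.90 ± 0.12), Tbx2 (-0.99 ± 0.17), Gata4 (-0.88 ± 0.16) and Tbx20 (-0.55 ± 0.11) among the latter.

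Hox genes did not differ detectably between the genotype labels. In VSMCs 0 of 8 tested were called at 10 weeks, at 18 weeks or for the change of the effect between the times, by edgeR's quasi-likelihood test with batch as a term, and 0 by DESeq2. Of all 11750 genes 0.0%, 0.034% and 0.00851% were called there, and 207, 564 and 293 of them reached an unadjusted p of less than 0.05, with 0, 2 and 0 of the 8 members. In fibroblasts 0 of 12 were called in the same 3 comparisons by either tool, against 0.0%, 0.0% and 0.0% of 14505 genes, with 0.841%, 2.35% and 0.91% of genes, and 0, 1 and 0 of the 12 members, at an unadjusted p of less than 0.05. Every adjusted p of a member rounded to 1 in these comparisons, and a p that misses the threshold does not show that levels were equal.

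At 18 weeks Hoxa5 in VSMCs was at 3.65, 4.38 and 35.9 CPM in the 7 libraries labelled Smad3SmKO and at 1.45, 2.39 and 4.77 CPM in the 5 Smad3+/+ libraries. The ranges overlapped, and the log2 difference was 1.29 ± 0.49. It was 0.64 without Smad3SmKO replicate 1, the library at 35.9 CPM with 54 VSMCs, 1.97 in the 30 min libraries alone and 0.52 in the 60 min libraries alone. Hoxb2 in VSMCs was at 27.8, 35.2 and 62.2 CPM against 17.4, 29.2 and 38.4 CPM (0.55 ± 0.23, and 0.88 and 0.20 in the 30 and 60 min libraries alone). All 8 values were above 0 at 18 weeks, 0.06 to 1.29 with a median of 0.46, and the median was -0.01 at 10 weeks, beside medians of -0.01 over all genes at either time. The 8 values come from the same libraries, so their common direction is no replication. In Smad3SmKO replicate 1 all Hox rows together were at 275.0 CPM, against 51.7 to 106 CPM in the others of its group. The part of that library in the set of 8 was not tested.

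In fibroblasts of 18 weeks Hoxb4 was at 10.7, 15.6 and 18.0 CPM in libraries labelled Smad3SmKO and 7.82, 8.99 and 13.5 CPM in Smad3+/+ (0.70 ± 0.29). Hoxb3 was at 5.01, 6.91 and 9.04 CPM against 3.79, 4.29 and 6.04 CPM (0.61 ± 0.28). The 12 values, which come from the same libraries, lay between 0.10 and 1.19 at 18 weeks and between -1.69 and 0.38 at 10 weeks. Cells with Tbx20 or Gata4, where the 3′ genes were low, made up 26.2, 37.9 and 51.6% of fibroblasts in the libraries labelled Smad3SmKO and 35.1, 45.2 and 63.1% in Smad3+/+ at 18 weeks, and their part in these values was not tested.

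**Figure D4:**
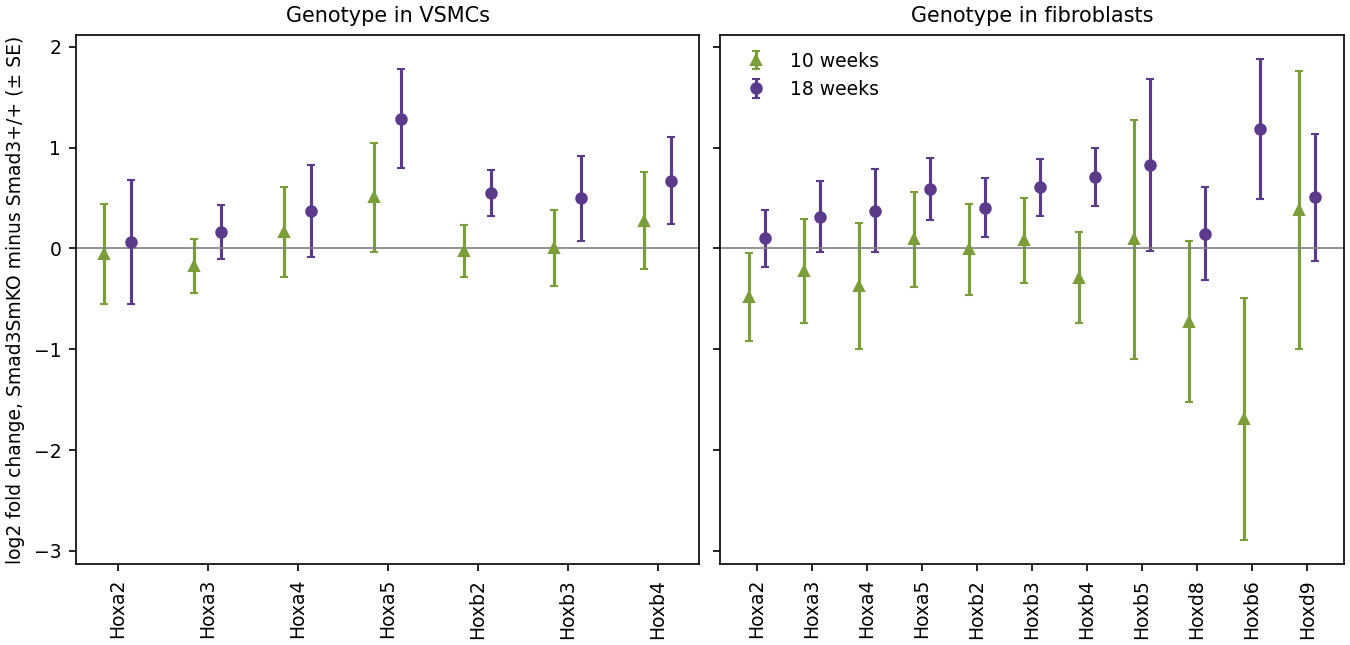
Log2 difference of tested Hox genes, Smad3SmKO minus Smad3+/+ by label, in VSMCs and fibroblasts, at 10 weeks (triangles) and 18 weeks (circles), with bars of 1 SE from edgeR. Drawn are 7 of the 8 members tested in VSMCs and 11 of the 12 in fibroblasts. At 18 weeks every value drawn lay above 0, the highest at 1.29 and 1.19, and none was called. The values of a class come from the same libraries, so their common direction is no replication.

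The spread of the abundant members over all 16 libraries holds genotype, time, batch and digestion together. In VSMCs the coefficient of variation was 32.0% for Hoxb2 and 45.1% for Hoxa3, where counting alone would give 15.1% and 18.9%. For Hoxb4 it was 107% (24.8% from counting alone), and 42.7% without its highest library, Smad3SmKO replicate 1 of 18 weeks. In fibroblasts it was 36.2% for Hoxb4 and 62.8% for Hoxa3, where counting alone would give 7.24% and 8.14%. For Hoxb2 it was 53.5% there (6.19% from counting alone), and 29.6% without its highest library, Smad3SmKO replicate 7 of 18 weeks. Leaving out the highest library was chosen after seeing the data. Tested over the 5 batches of 18 weeks, 0 of 8 members were called in VSMCs, where 1.87% of 11067 genes were, with Hoxa3 closest (adjusted p = 0.223 in edgeR). In fibroblasts 0 of 12 were called, where 0.199% of 15075 genes were, with Hoxd9 (adjusted p = 0.158 in edgeR) and Hoxb2 (adjusted p = 0.215) lowest. DESeq2 called Hoxd9, but it called far more of all genes there, as given below, so its call is not read against the share from edgeR.

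Genes that act on the clusters or with Hox proteins were compared between the same classes. Fibroblasts had more of the retinaldehyde dehydrogenases that make retinoic acid, Aldh1a1 (19.4, 114 and 317.6 CPM against 1.47, 6.29 and 23.9 CPM in VSMCs), Aldh1a3 (1.51, 37.5 and 252 CPM against 0, 0.346 and 2.39 CPM) and Aldh1a2 (0.853, 5.16 and 42.8 CPM against 0, 0 and 3.59 CPM). They also had more of Cyp26b1, which degrades it (log2 difference 2.57 ± 0.27), and of the receptors Rarg (1.34 ± 0.08) and Rara (1.13 ± 0.10). In all 7 of 10 retinoic acid genes were called against VSMCs, 6 of them higher in fibroblasts, where 69.6% of all genes were called. Endothelium was lower than fibroblasts in 6 of 10, Aldh1a1 (-5.86 ± 0.30) first. Of all 12017 genes 4035 were called lower there, and 62.8% were called in either direction.

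Of the Hox cofactors 5 of 8 were called between fibroblasts and VSMCs, against the same 69.6% of all genes. Meis2 (0.73 ± 0.15), Pknox1 (0.74 ± 0.10) and Pknox2 (1.22 ± 0.15) were higher in fibroblasts, and Pbx2 (-0.20 ± 0.08) was among those lower. Endothelium was lower than VSMCs in 5 of the 6 called of 8, where 67.0% of all genes were called, among them Meis1 (-2.76 ± 0.24), Meis3 (-2.45 ± 0.25), Pknox2 (-2.29 ± 0.42) and Meis2 (-1.06 ± 0.20), and higher in Pknox1 (1.10 ± 0.14). Of the chromatin regulators, Polycomb genes for the most part, 9 of 13 were called in fibroblasts against VSMCs, near that 69.6% of all genes, 5 higher, such as the methyltransferase gene Ezh2 (0.95 ± 0.14), and 4 lower, such as Cbx7 (-0.84 ± 0.12). Hotairm1 was at 11.8, 55.1 and 120 CPM in VSMCs and 5.80, 16.8 and 57.7 CPM in fibroblasts (-1.66 ± 0.13), and Hoxb3os at 15.99, 38.7 and 62.5 CPM against 4.25, 11.3 and 19.1 CPM (-1.91 ± 0.14), both lower in fibroblasts in 16 of 16 libraries.

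Position factors outside the clusters gave 17 of 18 calls between fibroblasts and VSMCs for the cardiac and neural crest list and 7 of 10 for the other homeobox list, among shares of 69.6% for all genes. Meox1 (4.74, 54.6 and 141 CPM against 0, 0.455 and 6.90 CPM) and Meox2 (4.52, 50.5 and 108 CPM against 0.506, 1.03 and 7.18 CPM), which act in somites, were higher in fibroblasts. Endothelium was higher than VSMCs in Meox2 (6.38 ± 0.27), Meox1 (5.68 ± 0.29) and Tbx1 (4.99 ± 0.44), a factor of pharyngeal and lymphatic development, and lower in Hand2 (-3.93 ± 0.20). In the genotype comparisons 0 genes of these 6 lists were called by edgeR. Over the batches of 18 weeks Hotairm1 and Prrx1 were among those called in VSMCs and 0 genes of the lists in fibroblasts.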

How the data were processed

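Per the labels, thoracic aortas of 16 mice were sequenced cell by cell, 1 library each. The deposited matrices hold UMI counts per gene and barcode, not normalized, made by the authors with Cell Ranger on mm10 with GFP added. The processing notes and methods name Cell Ranger 6 and Seurat 4, whereas the file headers name cellranger 4.0.0. Members and lists were chosen with earlier results of these data known. Barcodes with over 600 and under 6000 genes, over 2000 and under 50000 UMIs and under 25% mitochondrial UMIs were kept, with no doublet caller beyond these limits. Counts were summed per library and class (at least 20 cells) with pandas 2.3.3 and NumPy 2.4.6 under Python 3.11.15, with SciPy 1.17.1 for exact intervals, and tested with edgeR 4.0.16 in R 4.3.3 (TMM, filterByExpr, quasi-likelihood, Benjamini-Hochberg at 0.05 over all genes tested). Class, region and HoxA comparisons had library as a block, genotype comparisons batch as a term. DESeq2 1.42.0, RLE factors, other filters, other class rules and left-out libraries were alternatives. The fits were tested on simulated counts. CPM is UMIs per 1000000 UMIs of the class. Expected co-detection used 10 depth strata per library. Named members were the 10 with most UMIs and any called by genotype, batch or region, and from each fixed list up to 6 called genes with the lowest p. Values given as 3 numbers are the lowest, median and highest library. Figures were drawn with matplotlib 3.10.9. The authors' own comparisons were not used. Some members and list genes are not reported here.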

Additional observations from a re-analysis of the deposited data

Results flagged for a closer look

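In 11 of the 64 groups of 4 to 10 libraries examined, 1 library stood apart by Dixon's 95% limit on its gap to the others, where chance gives about 1 in 20. Of these, 6 were the 54 VSMCs of Smad3SmKO replicate 1 of 18 weeks. There Hoxb2 was at 62.2 CPM (the others at 27.8 to 38.2), Hoxb4 at 59.8 CPM (3.98 to 17.9), Hoxa5 at 35.9 CPM (3.65 to 8.37), Hoxa4 at 26.3 CPM (3.98 to 8.45), Hoxb5 at 14.4 CPM (0 to 2.39) and all Hox rows together at 275.0 CPM (51.7 to 106). The same library was high in endothelium for Hoxb3, at 28.4 CPM (3.12 to 9.17), and for Hoxb5, at 31.9 CPM (0 to 11.2). These 2 levels rest on 8 and 9 UMIs, and that of Hoxb5 in its VSMCs on 6.

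In Smad3+/+ replicate 1 of 18 weeks Hoxa3 of VSMCs was low, at 5.92 CPM (18.9 to 24.2). In Smad3+/+ replicate 5 of 18 weeks Hoxa2 of endothelium was high, at 5.79 CPM (1.82 to 2.75), but this rests on 4 UMIs against 1 to 5 in the others. Smad3SmKO replicate 7 of 18 weeks, with 193 fibroblasts, had Hoxb2 at 51.2 CPM in them (14.8 to 19.9). The cause of each was not tested.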

How the results depend on the processing

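Without the filter on low counts, Hox genes called were 8 (fibroblasts minus VSMCs), 17 (endothelium minus VSMCs), 14 (endothelium minus fibroblasts), 1 (batch in VSMCs, Hoxa3), 6 (region) and 6 (HoxA split in fibroblasts). More rows are tested then, rows near 0 in 1 class among them. The members tested and the shares of all genes called are not given for this setting, so these counts are not read as a result. DESeq2 called 1 in fibroblasts over batches, where it also called far more of all genes, as given below. Matching on UMI total left 1 in the region split, the single member tested. In the HoxA split of VSMCs the 2 calls became 1 with DESeq2, doubled class thresholds, at least 50 cells per sum, at least 2 HoxA UMIs or another seed, and 0 without the library block or without the 4 libraries of unmatched tracer labels, an alternative chosen after seeing the data. Leaving out 1 library gave 4 to 5, 6 to 7 and 5 to 6 calls for the class comparisons, 0 to 2 for batch in fibroblasts (2 without Smad3SmKO replicate 5 of 18 weeks), 1 to 2 in the HoxA split of VSMCs, and the same count elsewhere. There Hoxb3, uncalled, ran from -0.05 to 0.13, below 0 without Smad3SmKO replicate 7 of 18 weeks, and the cause was not tested. Shares of cells with a Hox UMI were 50.1%, 31.1%, 56.2% and 6.25% without thinning, and the endothelial co-detection ratio 1.28 without depth strata. Of 724 single-gene values over alternatives 710 kept direction and side of the threshold. No paired analysis was possible because replicate numbers here follow accession order and do not pair mice across genotypes. This concerns the replicate number alone, since library was a block in the class, region and HoxA comparisons and batch a term in that of genotype.

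Counts over all genes that moved by more than 1.5 times were as follows. Called genes went from 7552 to 4882 for endothelium minus fibroblasts with the class rules as written. For genotype in VSMCs they went from 0, 4 and 1 (10 weeks, 18 weeks, change) to 51, 108 and 60 without the filter, to 1 and 8 at the 2 times with DESeq2, and at 18 weeks to 1 or 2 with doubled thresholds, no limits on cells, no batch term, 60 min alone, or without some single libraries or the Smad3+/+ libraries that lack GFP UMIs. For genotype in fibroblasts DESeq2 gave 1, 4 and 1. Batch in VSMCs went from 207 to 721 with DESeq2, 1442 without the filter, 64 with doubled thresholds and 27 to 372 with 1 library left out. Batch in fibroblasts went from 30 to 2283 with DESeq2, 332 without the filter, 63 without the cells of most UMIs and 0 to 1164 with 1 library left out. The region split went from 1578 to 2458 without the filter, 816 without the block and 1041 with at least 50 cells. The HoxA split went from 2184 to 306 without the block and 1228 with 2 UMIs in fibroblasts, and from 261 to 490 without the filter, 10 without the block, 0.502 times as many without the 4 libraries and 68 with 2 UMIs in VSMCs.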

Other observations

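The kept cells that met none of the class rules, 5278 in all with a median of 6278 UMIs, held 2714 Hox UMIs, or 61.6 CPM, and 26.7% of them had at least 1. Leukocytes stood at 8.47 CPM.

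Most members of groups 6 to 13 were detected in a few cells at most. In fibroblasts the HoxC genes with most UMIs were Hoxc6 (32) and Hoxc4 (30), both at 0 UMIs in VSMCs and at 1 in endothelium. Fibroblasts had 154 UMIs of Hoxb6 and 12 of Hoxb9, and endothelial cells 24 of Hoxb7 and 13 of Hoxb8, the latter at 0 in the other 2 classes. With 3 UMIs as the floor, a level of up to 0.0353 CPM in VSMCs and 0.009 CPM in fibroblasts would go unseen, counting error alone.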
